A study of Canis lupus familiaris with 22 samples.

Results

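The canine β-defensin family was represented by 48 probes with 33 gene names, out of the 43603 probes for transcripts on the array. Its members were all probes for transcripts whose gene name in the scanner files begins with *DEFB* or *CBD*. Gene expression was measured in the blood of 8 healthy dogs (ctrl), of 7 patients with canine atopic dermatitis (cAD) before allergen-specific immunotherapy (ASIT), called 0, and again of these 7 patients once ASIT had run for 6 months. Per the study's methods, both groups of dogs held several breeds. The cAD patients were privately owned, and the healthy dogs were donors of a veterinary blood bank. The labels name venous whole blood that was collected into RNA-stabilizing tubes, while the study's methods name peripheral blood nuclear cells. On each of the 22 two-colour arrays, the RNA of 1 dog was labelled with Cy5 and hybridized together with a Cy3-labelled pool of blood RNA from further healthy dogs, the reference, without a dye swap. A value is the log2 ratio of dog to reference, so that 0 means equal signals and a positive value means more signal from the dog. The arrays of a group came from different dogs, and p-values measure the spread between these arrays, which holds that between animals and between slides. The 7 patients gave arrays at both times, and the main fit did not use this pairing.

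β-defensins are small cationic, disulfide-bonded peptides that permeabilize microbial membranes and are made above all by epithelia, in part in response to microbial ligands and cytokines. Several of them also attract immature dendritic cells and memory T cells through the receptor CCR6. In the dog, *CBD103* is known in addition as the gene of the dominant black coat colour, since its product binds the melanocortin 1 receptor, and many other members, among them *DEFB119* and *DEFB126*, are known from the epididymis and testis.

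The values below are those of 60-base probes, and the sequences of the probes that the results turn on are given here, each 5′ to 3′ as the scanner files list it, in lower case. The number in brackets tells probes of the same gene apart, in the order of their names on the array. *CBD103*, *CBD108* and *DEFB124* are shown because their probes were above background on nearly all arrays, and *DEFB112* and the *DEFB3L* probes because their ratios at 0 were low or disagreed between probes. The last pair overlaps, and the capitals mark the run of 48 bases that these probes share.
CBD103 (1): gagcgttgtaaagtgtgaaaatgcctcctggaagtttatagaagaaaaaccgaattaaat
CBD103 (2): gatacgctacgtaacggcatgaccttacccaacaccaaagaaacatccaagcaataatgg
CBD108 (1): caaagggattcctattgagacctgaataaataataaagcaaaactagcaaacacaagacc
CBD108 (2): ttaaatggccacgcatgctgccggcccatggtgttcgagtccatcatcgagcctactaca
DEFB124 (2): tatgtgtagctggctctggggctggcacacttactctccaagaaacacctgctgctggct
DEFB124 (3): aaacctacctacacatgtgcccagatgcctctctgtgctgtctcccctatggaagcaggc
DEFB112: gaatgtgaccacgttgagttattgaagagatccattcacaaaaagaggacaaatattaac
DEFB3L (1): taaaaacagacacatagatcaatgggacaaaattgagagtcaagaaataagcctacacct
DEFB3L (3): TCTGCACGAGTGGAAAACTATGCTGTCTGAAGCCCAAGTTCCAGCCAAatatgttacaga
DEFB3L (4): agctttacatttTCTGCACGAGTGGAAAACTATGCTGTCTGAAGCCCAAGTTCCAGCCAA

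Of the 48 probes, the files place 47 on the canFam3.1 genome. On chromosome 12, 5 probes lay between positions 17771291 and 17850084, among them that of *DEFB112*. Chromosome 16 held 16 probes in separate stretches, 4 from 53896671 to 53938425 (*CBD108*, *CBD109* and *CBD130*) and 12 from 58871019 to 59033519 (*CBD103*, *DEFB4A* and others). Chromosome 24 held 22 probes from 20591754 to 20989749, and chromosome 25 held 3 from 25914579 to 25963967. An annotation of this build was not used here, so the probes were not assigned to exons or untranslated regions. By accession, symbol or synonym, 43 probes with 29 of the gene names matched a RefSeq gene, where *DEFB3L* is a synonym of *DEFB122*.

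Few β-defensin probes gave a signal from the dogs' RNA in all 3 groups. The scanner software marked for each spot whether Cy5 was well above background, and a probe was called measured when this held on at least 4 arrays of each group. This was so for 9 of the 48 probes, while it held for 59.3% of all probes on the array. The 9 were both probes of *CBD103*, both of *CBD108*, both of *CBD140*, that of *CBD130* and *DEFB124* (2) and (3). Just outside the limit was *DEFB127* (2), above background on 8 ctrl arrays, 3 arrays at 0 and 6 after ASIT. Just inside it were *CBD140* (1), with 8, 5 and 4 arrays, and *CBD140* (2), with 8, 4 and 7. By position, 3 of the 4 probes of the first stretch on chromosome 16 were measured, against 3 of 12 in the second, 2 of 22 on chromosome 24 and 0 of the 8 on chromosomes 12 and 25.

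The detection of the family differed between arrays. On the 8 ctrl arrays, 35 to 46 of the 48 probes were well above background (median 42), on arrays where 83.7% to 92.3% of all probes were. Before ASIT the lowest number was 7, the median 10 and the highest 39, and after ASIT 8, 10 and 39. The 3 cAD arrays with 35 to 39 detected probes were dog 1 before ASIT and dogs 1 and 2 after ASIT, all on the same slide. On the other 11 cAD arrays, 7 to 14 probes (14.6% to 29.2%) were detected, where 53.3% to 64.9% of all probes were. The Cy3 channel held the same reference RNA on every array, and there 32 to 42 family probes were detected on ctrl arrays, 8 to 27 at 0 and 6 to 37 after ASIT. Detection of the family thus moved with the brightness of the array in both channels, and its part in the group differences of dim probes was not tested. The ctrl arrays filled slides 1 and 2 and were scanned on a day of their own, so that slide and group cannot be told apart in comparisons with ctrl.

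**Figure D1:**
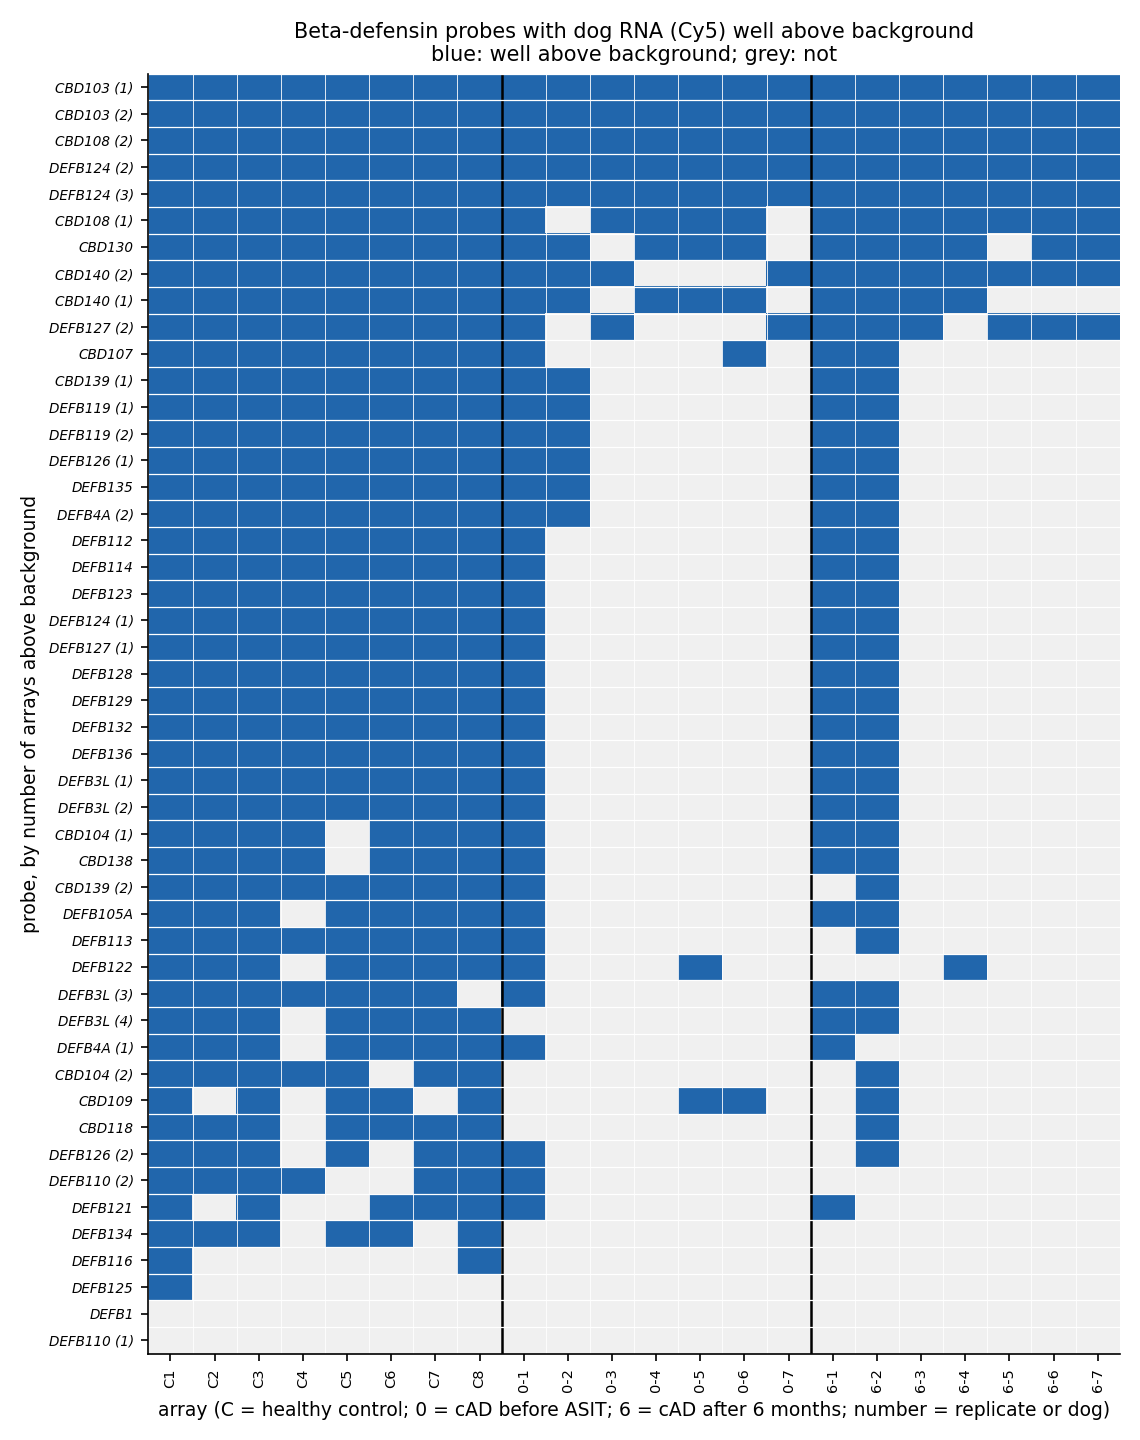
Each row is 1 of the 48 β-defensin probes, ordered by the number of arrays on which it was detected, and each column is 1 of the 22 arrays, with a blue cell where Cy5 was well above background. The 9 measured probes and *DEFB127* (2) form the blue rows at the top, and most other rows are blue on the 8 ctrl arrays and on 3 cAD arrays.

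For spots near background, the deposited ratio was often exactly 0. Among the family this was so for 2.86% of the values in ctrl, 22.6% at 0 and 35.1% after ASIT, while over all probes it was 2.22%, 11.2% and 14.5%. Tests were run on probes with Cy5 well above background on 7 or more of the 22 arrays. This held for 43 of the 48 family probes and for 87.8% of all probes. Of these 43, 34 were not measured. They passed with 5 to 8 ctrl arrays, and 33 of the 34 were above background on at most 4 of the 14 cAD arrays. For most of these 34 probes, a comparison with ctrl sets a detected signal against values near background on the cAD arrays.

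*CBD103* (1) differed most among the measured probes in both comparisons that involve the arrays after ASIT. The probe, on chromosome 16 from 58965232 to 58965291, was above background on 22 of 22 arrays, and its log2 ratio in ctrl ran from -0.96 over a median of -0.45 to 0.53. At 0 the lowest value was -2.03, the median 0.84 and the highest 1.63, and after ASIT they were -0.22, 1.56 and 2.11. Values after ASIT were thus mostly above ctrl, yet the groups overlapped. In 0 vs. ctrl the mean differed by 0.73 (standard error 0.45, limma adjusted p = 0.561). In 6 months vs. ctrl it differed by 1.41 (standard error 0.45, limma adjusted p = 0.620), where the exact permutation test of this single probe gave p = 0.00606, as all such tests here 2-sided and not adjusted. In 0 vs. 6 months it reached -0.68 with a standard error of 0.46 (limma adjusted p = 0.934). With the quantile-normalized Cy5 channel alone, which leaves out the reference, 15.5% of all tested probes passed the adjustment in 6 months vs. ctrl and 21.1% in 0 vs. ctrl. In that setting *CBD103* (1) was among those called in 6 months vs. ctrl, with 1.12 (limma adjusted p = 0.0449). With background correction by normexp and loess it was 0.42 in 6 months vs. ctrl (limma adjusted p = 1.00), 0.39 in 0 vs. ctrl and -0.02 in 0 vs. 6 months.

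Within the cAD patients, *CBD103* (1) differed in direction between dogs whose arrays shared a slide and dogs whose arrays did not. In dogs 1, 2 and 3, whose arrays before and after ASIT shared a slide, the ratio was lower after ASIT in 3 of 3 dogs, from -0.13 to -0.22, from 0.84 to 0.06 and from 0.68 to 0.51. In dogs 4 to 7, whose arrays lay on different slides, it was higher after ASIT in 4 of 4 dogs, from 1.32 to 2.01, from 0.87 to 1.92, from -2.03 to 1.56 and from 1.63 to 2.11. The mean difference of 0 minus 6 months was 0.35 in the first 3 dogs and -1.45 in the other 4. The 4 arrays after ASIT on slide 6 had a mean of 1.90 ± 0.24 (SD, n = 4), and the 3 on slides 3 and 4 had 0.12 ± 0.37 (SD, n = 3). Slide 6 held arrays after ASIT alone, so slide and dog cannot be told apart there. The 4 values of slide 6 lay above the other 3 for 5.10% of the 25867 measured probes on the array, and 27 of these had a larger mean difference than the 1.78 of *CBD103* (1). With the slide as a fixed block, the difference in 0 vs. 6 months became 0.46 (limma adjusted p = 1.00). The reference itself was dimmer on slide 6, where log2 Cy3 of this probe was 7.07 to 7.73, against 8.16 to 8.91 on ctrl arrays. On slides 4 and 5 it was 7.37 to 7.80, with ratios from 0.51 to 1.63 on 5 arrays and -2.03 on that of dog 6 at 0. The part of the reference signal in the ratios was not tested.

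**Figure D2:**
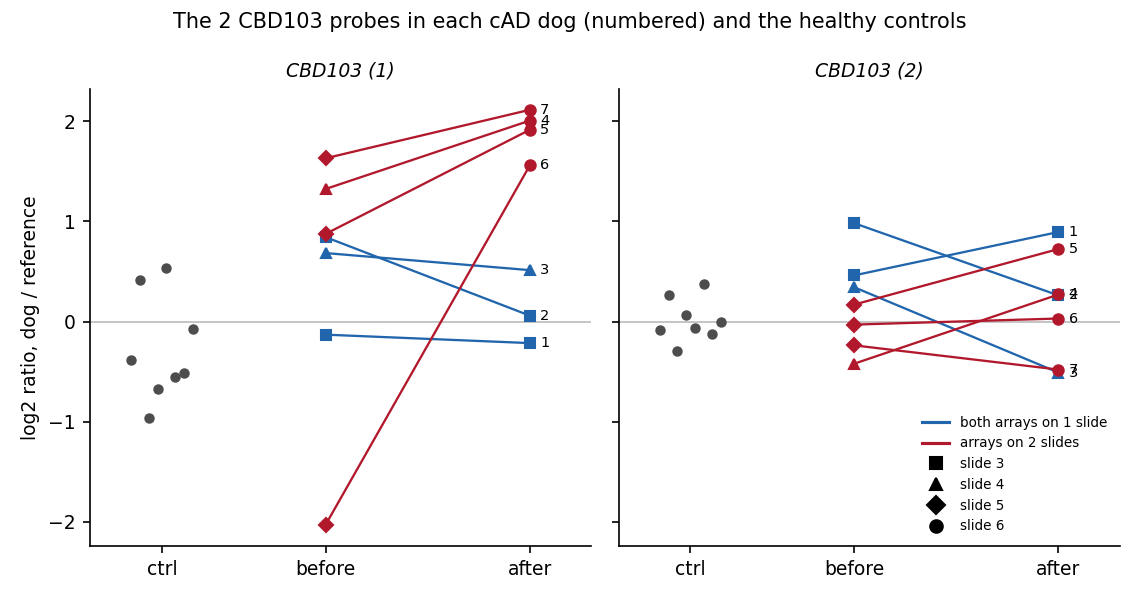
The log2 ratio of dog to reference is shown for both *CBD103* probes, with 1 point per array in ctrl and 1 line per cAD dog from before to after ASIT, coloured by whether its arrays shared a slide and with a marker for each slide. For *CBD103* (1) the 3 blue lines run downwards and the 4 red lines run upwards to between 1.56 and 2.11, while for *CBD103* (2) the lines cross.

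The other *CBD103* probe, designed from an expressed sequence tag and placed 1580 bases away in the opposite direction of the chromosome, did not show these differences. Its ratio ran from -0.29 to 0.37 in ctrl, from -0.42 to 0.98 at 0 and from -0.51 to 0.89 after ASIT, so that the groups overlapped widely. Its differences were 0.16 (standard error 0.22), 0.15 (standard error 0.22) and 0.01 (standard error 0.22), in the order given for the first probe. Over the 22 arrays, which share the same reference, the ratios of both *CBD103* probes had a Pearson correlation of -0.01. The symbol is the same for both, and which transcripts each probe binds was not tested.

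*CBD108*, *CBD130* and *CBD140* are canine genes whose mapped probes lie in the chromosome 16 stretches, with 1 *CBD140* probe not mapped. *CBD108* (2) had a log2 ratio from -0.67 to 0.23 in ctrl (median -0.17), from -0.12 to 0.79 at 0 (median 0.31) and from -0.38 to 0.95 after ASIT (median 0.31). The cAD ratios were thus shifted upwards with some overlap. The differences were 0.53 (standard error 0.20, limma adjusted p = 0.254, exact permutation p = 0.00342) in 0 vs. ctrl and 0.54 (standard error 0.20, limma adjusted p = 0.680) in 6 months vs. ctrl. Log2 Cy5 of *CBD108* (2), as deposited, was 7.37 to 8.69 in ctrl, 7.19 to 8.42 at 0 and 7.36 to 7.88 after ASIT. Log2 Cy3 of the reference was 7.75 to 8.47, 7.02 to 8.18 and 6.82 to 8.18. The part of the reference signal in these ratios was not tested. *CBD108* (1), which lies 157 bases away, gave -0.12 and 0.23 instead (standard error 0.19 for both). *CBD140* (2) ran from -0.42 to 0.54 in ctrl, from -1.94 to 0.26 at 0 and from -1.88 to 0.79 after ASIT, with differences from ctrl of -0.74 (standard error 0.34, limma adjusted p = 0.380) and -0.68 (standard error 0.34, limma adjusted p = 0.681). With normexp and loess, the differences in 0 vs. ctrl were 0.25 for *CBD108* (2) and -0.12 for *CBD140* (2). With Cy5 alone, where many probes of the array were called, they were larger, 0.65 (limma adjusted p = 0.0326) and -1.88 (limma adjusted p = 0.00855), and *CBD140* (1) had -0.77 (limma adjusted p = 0.0269). In 6 months vs. ctrl, *CBD140* (2) had -1.21 with Cy5 alone (limma adjusted p = 0.0428). At 0 the lowest values of *CBD140* (2) stood on 3 arrays where Cy5 was not well above background. *CBD140* (1) had differences of -0.44 and -0.48, and *CBD130* of -0.30 and -0.00, none of which passed the adjustment.

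*DEFB124*, a member of the chromosome 24 cluster, had 2 measured probes, both detected on 22 of 22 arrays. They differed in brightness, with a log2 Cy5 of 7.64 to 9.07 for *DEFB124* (2) and of 13.93 to 15.49 for *DEFB124* (3). Their ratios had a Pearson correlation of -0.05 over the 22 arrays. *DEFB124* (1), not measured, was above background on 11 arrays and had a difference of -0.56 in 0 vs. ctrl. Which transcripts each probe binds was not tested. *DEFB124* (2), on chromosome 24 from 20985665 to 20985724, ran from -0.33 to 0.29 in ctrl, from -0.01 to 0.17 at 0 and from -0.26 to 0.13 after ASIT. It was higher at 0 than after ASIT in 7 of 7 dogs, by a mean of 0.15 with a standard error of 0.12 (limma adjusted p = 0.934). Within dogs, the exact permutation test gave p = 0.0156, the smallest that 7 dogs allow. Of the measured probes, 1 of 9 in the family and 1.6% on the array differed in the same direction in all 7 dogs. *DEFB124* (3) lies 80 bases away and showed no such order, with 3 dogs higher and 4 lower at 0 and a difference of -0.14 (standard error 0.13). In 0 vs. ctrl, *DEFB124* (2) and (3) gave 0.09 (standard error 0.12) and -0.29 (standard error 0.13, limma adjusted p = 0.382). With Cy5 alone, *DEFB124* (3) had -0.75 in 0 vs. ctrl (limma adjusted p = 0.00573) and -0.50 in 6 months vs. ctrl (limma adjusted p = 0.0274), and *DEFB124* (2) turned to -0.14 in 0 vs. ctrl.

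**Figure D3:**
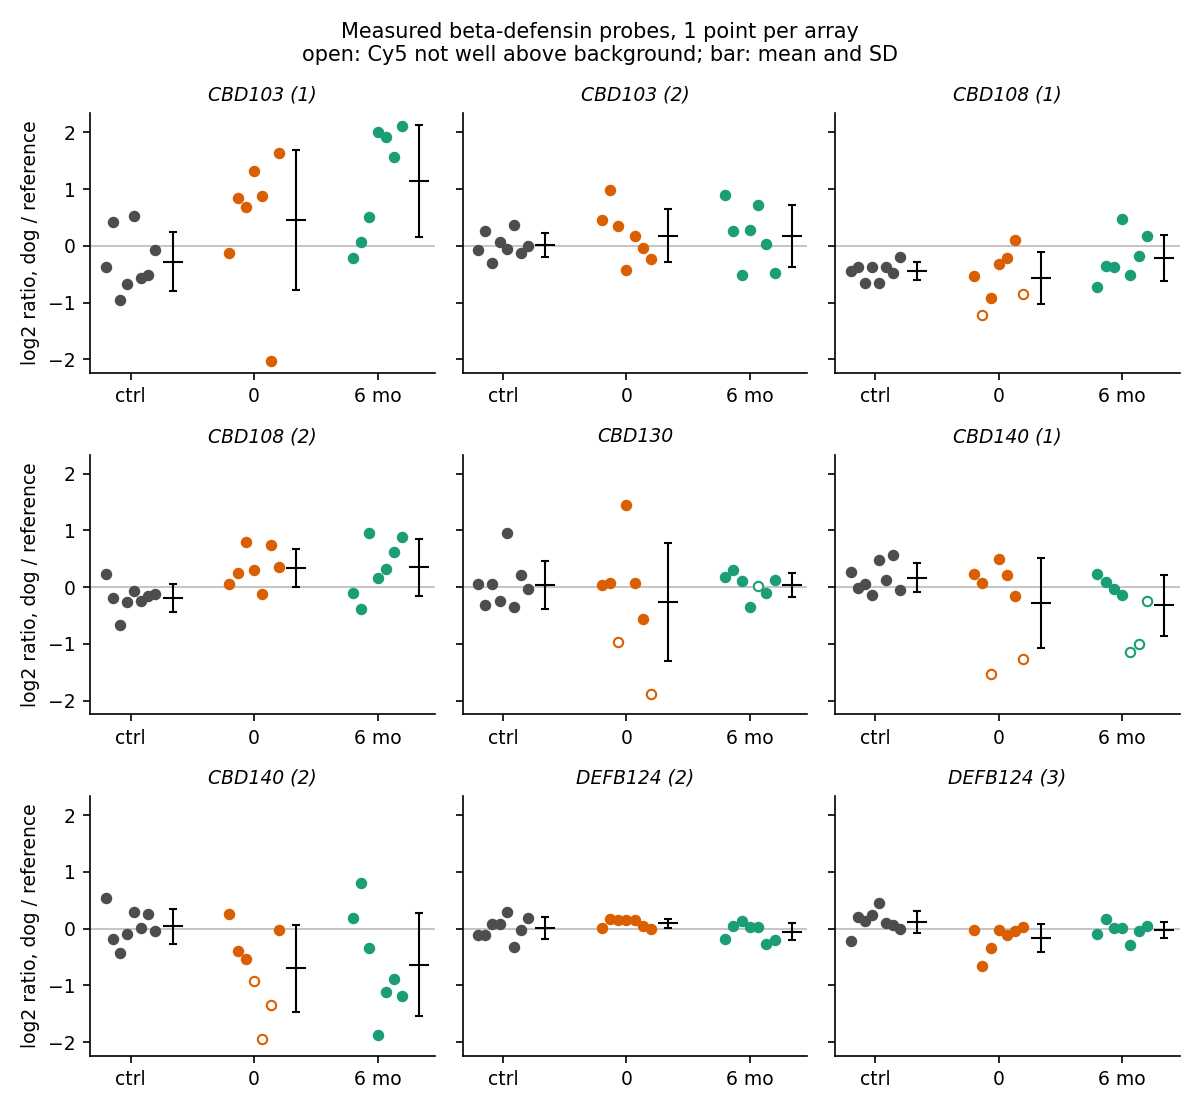
The log2 ratio of dog to reference is plotted for the 9 measured probes, 1 point per array, with open points where Cy5 was not well above background and a bar for the mean and SD of each group. *CBD103* (1) after ASIT is split into 4 points from 1.56 to 2.11 and 3 from -0.22 to 0.51, while both *DEFB124* probes stay between -0.66 and 0.45.

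*DEFB112*, a member of the chromosome 12 cluster, was detected on all ctrl arrays and on few cAD arrays. Its probe, from 17850025 to 17850084, was above background on 8 of 8 ctrl arrays, 1 of 7 at 0 and 2 of 7 after ASIT. Cy3, which held the same reference RNA on every array, was above background on 8, 1 and 2 arrays as well. The probe entered the tests through the ctrl arrays. Its differences therefore set detected signals against ratios near background, and their size is not a measured change of the transcript. The log2 ratio in ctrl ran from -0.21 to 0.21 (median -0.02), and at 0 from -2.29 over -1.45 to -0.23, so that the groups did not overlap, which held for 0.219% of all tested probes. After ASIT the dogs 1 and 2 had 0.57 and -0.32, and the other 5 were written as exactly 0. With this limit, the mean ratio differed by -1.25 in 0 vs. ctrl (standard error 0.22, limma adjusted p = 0.0405), 1 of 43 family probes under the threshold beside 0.0418% of all tested probes. In 0 vs. 6 months, where most values of both groups were near background, it differed by -1.28 (standard error 0.23, limma adjusted p = 0.0949). This became -0.09 with normexp and loess and -0.33 with Cy5 alone (limma adjusted p = 0.802). Without the 3 cAD arrays on which the probe was detected it was -1.42 (limma adjusted p = 0.0137), a value from undetected signals alone. On the arrays of dog 1, bright at both times, the ratio was -0.23 at 0 and 0.57 after ASIT. The call in 0 vs. ctrl held in 3 of 15 fits that each left out 1 array, those without dog 1 (the only detected array at 0), 2 or 4 at 0, and the adjusted p of the 15 fits ran from 0.00195 to 0.109. It was lost with normexp and loess, where the difference was -0.09 (limma adjusted p = 0.607), and with the slide as a random block, where it was -1.23 (limma adjusted p = 0.213).

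*DEFB122* was read by 5 probes, 4 of them listed under its synonym *DEFB3L*, and these did not give a common direction. *DEFB3L* (1), on chromosome 24 from 20940573 to 20940632, ran from -0.61 to 0.16 in ctrl, from -3.01 over -1.99 to -0.35 at 0 and from -2.52 over 0 to 0.32 after ASIT. At 0, the values of 6 of 7 dogs lay below all of ctrl, and that of dog 1 did not. Cy5 was above background on 8 ctrl arrays, 1 at 0 and 2 after ASIT, so the limit given for *DEFB112* holds here too. The difference was -1.53 in 0 vs. ctrl (standard error 0.39, limma adjusted p = 0.123) and -1.23 in 0 vs. 6 months (standard error 0.40, limma adjusted p = 0.476). With Cy5 alone the former was -1.43 (limma adjusted p = 0.0329). With normexp and loess these became -0.03 and -0.07, and with the slide as a fixed block the latter was -0.45. Leaving out dog 1 at 0, where Cy5 was detected on no other array, gave -1.76 in 0 vs. ctrl (limma adjusted p = 0.0247), a value that then compares detected signals with undetected ones alone. Within dogs 1 to 3, whose arrays shared a slide, the difference of 0 minus 6 months was -0.35.

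The probe listed as *DEFB122* had a difference of -1.08 in 0 vs. ctrl (standard error 0.35, limma adjusted p = 0.200), with values from -0.75 to -0.02 in ctrl and from -2.91 to -0.05 at 0. The direction turned with the Cy5 channel alone, where it was 0.22, and with normexp and loess it was 0.01. For *DEFB3L* (2), (3) and (4) the differences in 0 vs. ctrl were -0.00 (standard error 0.29), 0.36 (standard error 0.28) and -0.19 (standard error 0.27). In 0 vs. 6 months these probes had -0.24, 0.64 and 0.16, and the probe listed as *DEFB122* had -0.56. In 6 months vs. ctrl they had 0.24, -0.29 and -0.35, and the *DEFB122* probe -0.52. *DEFB3L* (3) and (4) start 12 bases apart and share 48 of their 60 bases, as printed above. Even so, their ratios correlated by 0.04 over the 22 arrays. Of the 14 cAD values, *DEFB3L* (4) had 11 that were written as exactly 0 and *DEFB3L* (3) had 5. A shorter run of 22 bases was common to the *DEFB122* probe and *DEFB3L* (2), and one of 19 bases to *DEFB123* and the overlapping pair.

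**Figure D4:**
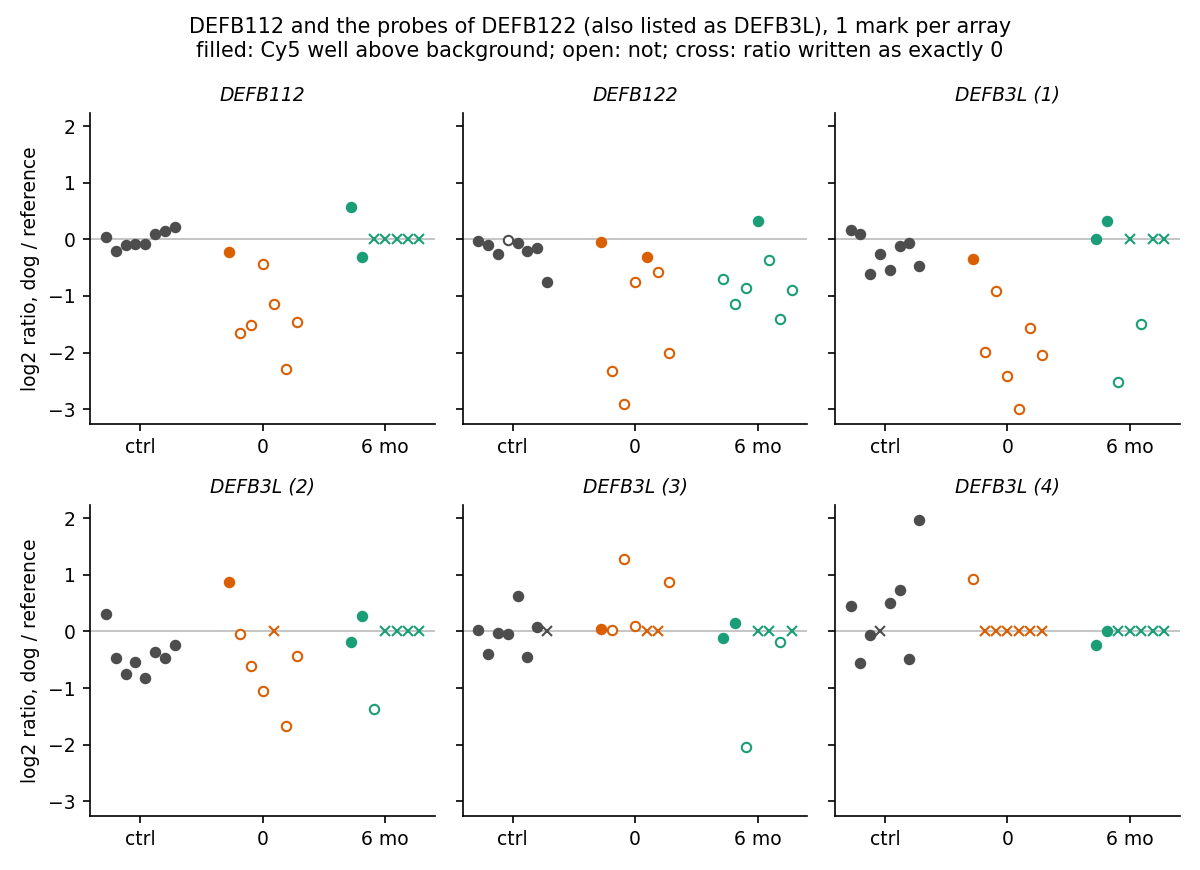
The log2 ratio of dog to reference is shown for *DEFB112* and the 5 probes of *DEFB122*, 1 mark per array, filled where Cy5 was well above background, open where it was not and a cross where the ratio was written as exactly 0. The low values of *DEFB112* and *DEFB3L* (1) at 0 are mostly open marks, and *DEFB3L* (4) is a row of crosses on most cAD arrays.

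Nearly all of the remaining tested probes were dim on the cAD arrays, the exception being *DEFB127* (2), detected on 9 of 14 cAD arrays. Sizes of differences from ctrl are limited among the dim probes as for *DEFB112*. In 0 vs. ctrl, the furthest from 0 were those of *DEFB128* (-1.13, standard error 0.35, limma adjusted p = 0.191), of *DEFB4A* (2) (-1.12, standard error 0.39, limma adjusted p = 0.226), an inducible epithelial defensin, and of *DEFB132* (-1.03, standard error 0.31, limma adjusted p = 0.186). At 0 their ratios ran down to -2.67, -2.49 and -2.41, while ctrl stayed within -0.45 to 0.58 for these 3 probes. Each was above background on 8 ctrl arrays, and on 1 or 2 arrays at 0 and 2 after ASIT. With normexp and loess, these 3 differences were -0.03, -0.10 and -0.03, and with Cy5 alone they were -1.004, -2.56 and -1.93 (limma adjusted p = 0.0256, 0.0178 and 0.0231). In 0 vs. 6 months the same 3 probes had differences of -0.79, -0.89 and -0.77. With the slide as a fixed block the direction turned for *DEFB4A* (2), to 0.13, and for *DEFB132*, to 0.05. It turned also for *DEFB132* with the Cy5 channel alone (0.08) and for *DEFB4A* (2) in dogs 1 to 3 (0.18). In 6 months vs. ctrl the largest were *CBD139* (1) with -1.13 (standard error 0.52, limma adjusted p = 0.681), *DEFB123* with -0.62 and *DEFB105A* with -0.49. Leaving out 1 array gave -1.42 to -0.63 for *CBD139* (1), the latter without dog 4 after ASIT. *CBD139* (2) had -0.31 in 6 months vs. ctrl. With Cy5 alone *CBD139* (1) and *DEFB123* had -3.62 (limma adjusted p = 0.0236) and -1.06 (limma adjusted p = 0.0265), and with normexp and loess -0.10 and -0.04. *DEFB4A* (2) and *DEFB132* had -2.25 (limma adjusted p = 0.0347) and -2.00 (limma adjusted p = 0.0276) with Cy5 alone in 6 months vs. ctrl, where 15.5% of all tested probes were called. The ratio of *DEFB105A* after ASIT was exactly 0 on 5 of 7 arrays. *DEFB119*, for which both probes were detected on all ctrl arrays, had similar differences from them in 0 vs. ctrl, -0.83 and -0.78. The probes of *DEFB4A* differed more, with -0.24 for *DEFB4A* (1) against -1.12 for *DEFB4A* (2) in 0 vs. ctrl.

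Before adjustment, 3 of the 9 measured probes had a limma p under 0.05 in 0 vs. ctrl, 2 lower and 1 higher at 0, beside 8.36% of all measured probes. Of the 34 that were tested but not measured 8 did, all lower, beside 18.8% of all such probes. All but *DEFB127* (2) had entered the tests through the ctrl arrays, where they were detected, so their number and direction are a description of the selected probes alone. Together these were 11 of 43, beside 11.7% of all tested probes (7.93% lower and 3.81% higher). After ASIT against ctrl, 5 of 43 did (3 lower and 2 higher), beside 7.2% of all tested probes (3.12% lower and 4.08% higher). In 0 vs. 6 months, 6 of 43 did (5 lower and 1 higher at 0), beside 5.96% (3.81% lower and 2.15% higher). No family probe had groups without overlap in the last pair of comparisons, where 0.11% and 0.0183% of all tested probes did. After limma's adjustment 0 of 43 passed in 6 months vs. ctrl (0% of all tested probes) and 0 of 43 in 0 vs. 6 months (0%). By limma's moderated F-test over the 3 groups 0 of 43 passed as well (0%), and 8 of 43 had an unadjusted p under 0.05, beside 9.7% of all tested probes. The one-way test that the study's methods name, followed by Tukey's, called 0 of 43 in each comparison (0% of all tested probes), with 8, 3 and 2 under 0.05 before adjustment, beside 6.45%, 2.83% and 2.6% of all tested probes. The comparisons with ctrl share the ctrl arrays, so their counts are not independent of each other. The median difference of the 43 probes was -0.29, -0.17 and -0.14 in the 3 comparisons, those with ctrl first, against -0.02, -0.04 and -0.01 over all tested probes. For the 34 probes that were tested but not measured, the median in 0 vs. ctrl was -0.34, while all 12420 such probes on the array had -0.11. For the 9 measured probes it was -0.12, with 5 of 9 below 0. Since most of these probes passed the filter through the ctrl arrays, the medians describe the probes tested and not the whole family.

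**Figure D5:**
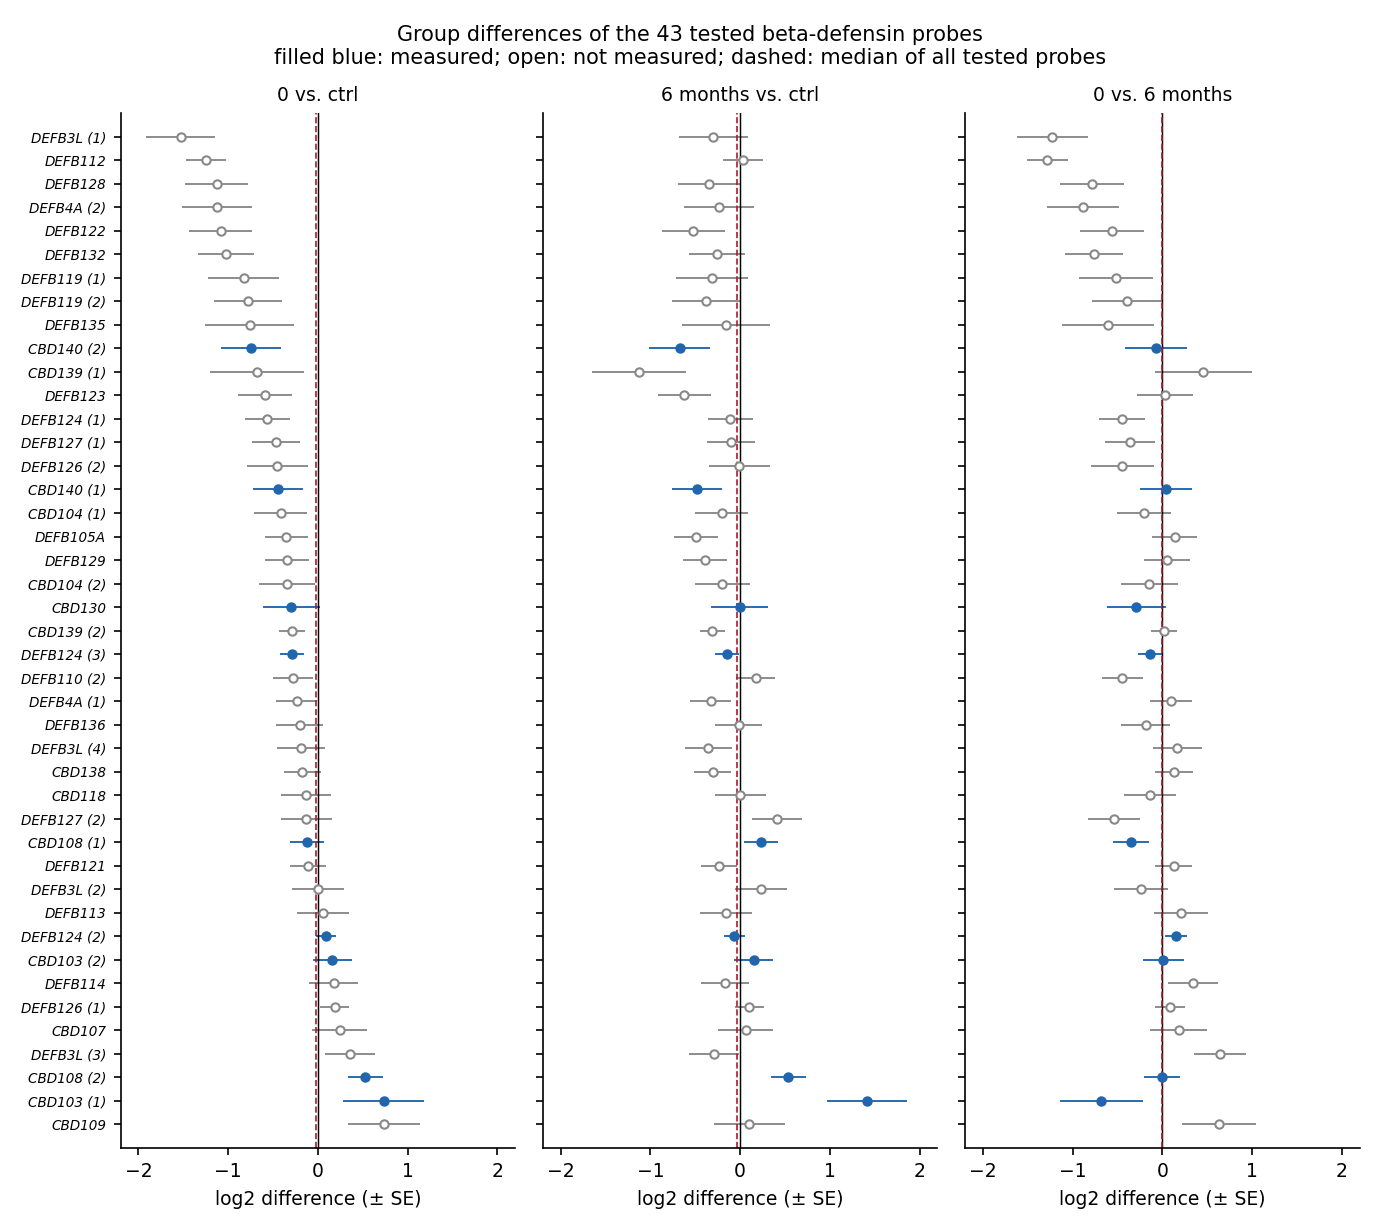
For the 43 tested β-defensin probes, the log2 difference of the group means with its limma standard error is plotted in each of the 3 comparisons, in the order of 0 vs. ctrl, with the measured probes filled and the median of all tested probes dashed. The open points of 0 vs. ctrl reach from -1.53 to 0.74, and the filled points of *CBD103* (1) and *CBD108* (2) lie to the right of 0 in both comparisons with ctrl.

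The 5 probes that were not tested were those of *DEFB1*, *DEFB110* (1), *DEFB116*, *DEFB125* and *DEFB134*. *DEFB1*, the constitutive β-defensin of epithelia, and *DEFB110* (1) were above background on 0 of 22 arrays, as were 4.05% of all probes. The other 3 were above background on 2, 1 and 6 ctrl arrays and on no cAD array. A further 5 probes on the array are described as β-defensins in the files but carry an accession in place of a *DEFB* or *CBD* name. Of them, 4 were above background on 8 ctrl arrays, 1 at 0 and 2 after ASIT, the fifth on 5 ctrl arrays alone, and their differences in 0 vs. ctrl, where tested, ran from -0.64 to 0.11. Probes of the family had a median GC content of 40.8%, against 43.3% for all probes, and the 9 measured ones had 45%.

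Genes of the pathway around the β-defensins were read from the probe with the brightest reference signal. Of 7 receptors and binding partners, 6 were measured and 0 of 7 passed limma's adjustment in any comparison, with 2, 3 and 0 under 0.05 before it. For all tested probes the shares under 0.05 were 11.7%, 7.2% and 5.96%, and the counts of the lists that follow stand beside these as well. The median difference of this list in 0 vs. ctrl was 0.10, against -0.02 over all tested probes. *MC1R*, the melanocortin receptor that CBD103 binds, had a log2 ratio of 0.22 ± 0.38 (SD, n = 8) in ctrl, 1.34 ± 0.78 (SD, n = 7) at 0 and 1.25 ± 1.21 (SD, n = 7) after ASIT, a difference of 1.11 in 0 vs. ctrl (limma adjusted p = 0.244). *CCR6*, the chemokine receptor for β-defensins, had 0.28 ± 0.36 (SD, n = 8), 0.90 ± 0.59 (SD, n = 7) and 0.90 ± 0.70 (SD, n = 7), a difference of 0.62 (limma adjusted p = 0.365). Its probe was above background on 7 ctrl arrays, 4 at 0 and 6 after ASIT. Among the inducers of β-defensins, 10 of 15 genes with a probe were measured and 0 passed limma's adjustment (0, 1 and 2 before it), with *TNF* (0.43, limma adjusted p = 0.620) and *IL6* (0.22, limma adjusted p = 0.886) showing the largest differences of those measured in 0 vs. ctrl. The *IL6* probe was above background on 8 ctrl arrays, 4 at 0 and 6 after ASIT. Of the type 2 and regulatory cytokine genes, 4 of 5 with a probe were measured and 0 passed limma's adjustment (1, 1 and 0 before it), the largest differences being those of *IL10* (0.55, limma adjusted p = 0.467) and *IL4* (-0.51, limma adjusted p = 0.244).

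Of 14 genes of other antimicrobial proteins of blood, 13 were measured. None of the 14 passed the adjustment in any comparison by limma, with 1, 2 and 0 under 0.05 before it, beside 11.7%, 7.2% and 5.96% of all tested probes, and the differences in 0 vs. ctrl were largest for *LCN2* (0.63, limma adjusted p = 0.623), which binds siderophores, and *CAMP* (0.58, limma adjusted p = 0.664), the cathelicidin of dog neutrophils. The gene under 0.05 before adjustment in 0 vs. ctrl was *SLPI*, with 0.53 (standard error 0.16, limma adjusted p = 0.182). The marker lists of blood cells were measured for each gene that had a probe, 4 of 4 for neutrophils, 5 of 5 for monocytes, 4 of 4 for T cells and 4 of 4 for B cells. Of the keratinocyte markers, 4 of 9 with a probe were measured (*KRT5*, *KRT14*, *KRT10* and *SFN*) and 2 were above background on 0 cAD arrays, and the summed Cy5 intensity of the list was 7119 to 10211 in ctrl, 6051 to 8392 at 0 and 5973 to 8872 after ASIT. In the list of the male reproductive tract, 1 of 3 genes with a probe was measured. Eosinophil (2 of 2), erythroid (3 of 3) and platelet markers (3 of 3) were measured as well. The erythroid markers had the largest median differences of these lists, 0.69 in 0 vs. ctrl and 0.97 in 6 months vs. ctrl, and their part in the β-defensin values was not tested. In none of the cell lists did a gene pass limma's adjustment, with 0 or 1 per list under 0.05 before it in each comparison. In blood samples, fewer cells of a type and less RNA per cell cannot be told apart.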

How the data were processed

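Per the labels, RNA from blood was labelled and hybridized to 2-colour Agilent canine arrays, and the scans were read with Feature Extraction, version 10.7.3.1 in the labels and 10.10.1.1 in the file headers. The deposited scanner files hold, per spot, the background-subtracted and dye-normalized processed signals of both channels as linear intensities and their ratio as a log10 value of Cy5 over Cy3, made by the authors with that software. The deposited series matrix holds log10 ratios, a scale found by setting them against the scanner values. They matched on the cAD arrays but not on the ctrl arrays (r = 0.708 to 0.844), where their processing is not given in the sources used here, and they served as an alternative. The number of arrays, 8 and 7 per group, limits the precision.

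Each log10 ratio was turned into log2, 208 outlier-marked spots were left out, and the 43803 spots were averaged into 43603 probes, with no further normalization. The 38287 probes whose Cy5 signal exceeded background clearly, by the software's own mark, on a minimum of 7 arrays were fitted in 1 limma model over the 3 groups (R 4.3.3, limma 3.58.1), with Benjamini-Hochberg adjustment over all of them and a threshold of 0.05. Single probes were also tested by exact permutation. The scripts were tested on simulated data.

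Groups were taken from the labels, which give the arrays before and after ASIT the same dog numbers. The deviations of a dog's arrays from their group means correlated by -0.04 to 0.56, above 0.1 in 6 of 7 dogs, and the fit with the dog as block was run as an alternative. Further alternatives were normexp background correction (offset 50) with loess, which pulls the ratios of dim probes towards 0 by construction, the ratio of processed signals, the Cy5 channel alone, other filters, the one-way and Tukey tests of the study's methods, slide and scan day as blocks, and leaving out arrays. The family, the lists of receptors, inducers, type 2 cytokines, other antimicrobial proteins and cell type markers, and the tests were chosen with earlier results of these data known. Named with values were all measured probes, all probes of *CBD103*, *DEFB112* and *DEFB122*, the 3 other probes with the largest difference per comparison, and the 2 measured genes with the largest difference in 0 vs. ctrl of each pathway list, and any other probe named was chosen after its values were seen.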

Additional observations from a re-analysis of the deposited data

Results flagged for a closer look

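In 63 groups of arrays of the named probes, 8 had 1 value far from the rest by Dixon's test. Chance alone gives about 1 in 20 where values vary freely, but 6 of the 8 groups held 3 to 6 ratios written as exactly 0, and that rate does not apply to them. In ctrl, *CBD130* was highest in dog 5 with a log2 ratio of 0.95, the next value being 0.21, and *DEFB122* was lowest in dog 8 with -0.75, the next being -0.26. At 0, *DEFB105A* was highest in dog 2 with 1.63 (next 0.35), and *DEFB3L* (4) was highest in dog 1 with 0.92 (next 0). After ASIT, *DEFB112* was highest in dog 1 with 0.57 and *DEFB3L* (4) was lowest in dog 1 with -0.24, in both cases next to 0. After ASIT, dog 3 had the lowest values of *DEFB3L* (2) and (3), -1.37 (next -0.19) and -2.04 (next -0.18). None of the 8 belongs to a probe detected on all 22 arrays.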

How the results depend on the processing

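The count of family probes called in 0 vs. ctrl, 1 of 43, became 0 with normexp and loess, with the series matrix, with both channels required above background on all arrays (5 family probes left), with the methods' one-way and Tukey tests, with slide or scan day as a random block, and with ratios of exactly 0 taken as missing, an alternative chosen after seeing the data. It became 19 with the Cy5 channel alone, where 21.1% of all tested probes were called, and 2 without the 3 bright cAD arrays (1.29% of all), also chosen after seeing the data. Leaving out 1 array at a time gave 0 to 2. Over the 3 groups the count of 0 became 13 with Cy5 alone (19% of all probes), 1 without a filter on dim probes (0.0573%) and 2 without the 3 bright arrays (0.945%). In 6 months vs. ctrl it became 11 with Cy5 alone (15.5%). In 0 vs. 6 months it became 1 without the 3 bright arrays (0.118%) and ran from 0 to 1 when 1 array was left out, with 1 called without dog 1 at 0 or dog 3 after ASIT. The causes were not tested.

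With the dog as replicate block, 0 of 43 were called in 0 vs. 6 months, and the block changed no call of a named probe. For *DEFB112* the difference of -1.28 had an adjusted p of 0.702 with the block, and for *CBD103* (1) -0.68 had 0.810, both by limma.

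Of 978 values of single named probes under the alternatives, 912 kept their side of the threshold and, where not called, moved by less than the SD between arrays, 38 moved further, 7 lost the call and 21 gained it. The sign differed in 87, none of them a called value. No value of *DEFB112* in 0 vs. ctrl changed sign, and its lowest adjusted p was 0.00183 without the 3 bright arrays, the only cAD arrays on which it was detected. Dim signals limit what can be seen: 34 of the 43 tested probes were well above background on fewer than 4 arrays of at least 1 group.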
